A study of Mus musculus with 15 samples.

Results

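The genes Runx1, Runx2, Runx3 and Cbfb were read from a gene expression table of mouse bone marrow progenitors. All 4 are rows of the deposited table, which holds 12798 genes, and all 4 passed the filter on low values that left 12572 tested genes. They were taken by name, over 6 groups of sorted cells and 15 libraries. Every group came from bone marrow of the C57BL/6 background, and every sort kept Lin- Kit+ 2B4+ cells. ALP_WT (n = 3), the all-lymphoid progenitor, has the genotype Tcf7EGFP/+ and was a4b7-, Flt3high and IL-7Ra+. The other groups were a4b7+ and Tcf7+. Those with EILP in the name, the early innate lymphoid progenitors, were also Thy1-. sEILP_WT (n = 2) and cEILP_WT (n = 3) carry both Tcf7GFP and Zbtb16GFP. They were split into a Zbtb16low Flt3high fraction, sEILP_WT, and a Zbtb16high Flt3low fraction, cEILP_WT. EILP_KO (n = 2) has the genotype Tcf7EGFPnull/- and lacks an intact Tcf7 allele, and EILP_WT (n = 3) has the genotype Tcf7EGFPnull/+, so that its cells keep 1 intact allele. ILCP_WT (n = 2), the innate lymphoid cell (ILC) progenitor, is Tcf7EGFP/+ and was Thy1+ and IL-7Ra+. Ages are not given in the sources used here. Genotype and stage cannot be told apart in any comparison below except ILCP_WT against ALP_WT, which share a genotype, cEILP_WT against sEILP_WT, which share one too, and EILP_KO against EILP_WT, where the Tcf7 genotype is the comparison.

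Runx proteins are transcription factors that bind DNA through a conserved Runt domain, and Cbfb encodes their common partner, which does not touch DNA itself but raises their affinity for it. Runx1 is needed for the first blood stem cells of the embryo and acts in B and T lymphoid development. Runx2 is best known as the master regulator of bone formation, and in blood it acts in plasmacytoid dendritic cells. Runx3 acts in CD8+ T cells, natural killer (NK) cells and ILCs, and mouse ILC1 and ILC3 depend on it. Tcf7 encodes TCF-1, a factor that early ILC progenitors need.

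The genes of the Runx family start from a distal and a proximal promoter, and the distal ones carry a stretch of sequence that is shown here because all 3 Runx genes hold it letter for letter. RefSeq promoter windows of build GRCm38.p6, each from 250 bases before to 50 bases after a gene start, gave 6 windows for the 4 genes. A search for the longest run common to Runx1, Runx2 and Runx3 found 18 bases, printed in capitals in 30 bases of context on the strand of the gene.
Runx1, chr16:92826029-92826058, minus strand: acctcataaaCAACCACAGAACCACAAGtt
Runx2, chr17:44814587-44814616, minus strand: gcctcacaaaCAACCACAGAACCACAAGtg
Runx3, chr4:135120499-135120528, plus strand: tctggtccctCAACCACAGAACCACAAGgc
The capitals begin 136 bases before the start of Runx3, at base 27 of the Runx1 transcript and at base 22 of the Runx2 transcript. On the opposite strand they read as 2 copies of TGTGGT, the core of the sequence that Runx proteins bind. Of 32851 promoter windows, searched on both strands, 4 held the 18 bases: those of Runx1, Runx2 and Runx3 and that of Gm16225, which overlaps the Runx3 window. A TGTGGT alone was in 16.8% of the windows, and at least 2 were in 1.81%. The proximal windows of Runx1 and Runx3 and the window of Cbfb held 0 copies. The expression table gives 1 value per gene, so the data do not say which promoter was used, and the match is a description of the sequence.

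The deposited values are on a log2 scale, read from the values as library-scaled counts (CPM) after quantile normalization. A difference of 1 is a doubling. No label states the scale. Read in this way, levels are not divided by transcript length, so each gene is compared with itself across groups. In bulk samples, fewer cells that express a gene and less of its RNA per cell cannot be told apart. Whether the libraries of a group came from separate animals is not given in the labels, and p-values here reflect library-to-library spread alone, which may be technical. Part of the gate was visible in the RNA. Tcf7 was 6.97 and 7.65 in EILP_KO, against 9.89 to 11.34 in the other groups sorted as Tcf7+ and 1.91 to 2.64 in ALP_WT. Flt3 was highest in ALP_WT, at 10.53 to 10.98, and Thy1 in ILCP_WT, at 4.85 and 4.99. Cd244, which encodes 2B4, was 3.51 and 6.22 in ILCP_WT, although every sort kept 2B4+ cells, and had group means of 6.40 to 7.06 elsewhere. EILP_WT replicate 3 stood apart: 2575 genes sat at its floor, the lowest value of a library, against 747 to 2224 genes in the other libraries. It also held the NK genes Klrb1c at 6.62, Tbx21 at 5.62 and Ncr1 at 4.44, which sat at the floor in both other EILP_WT libraries. cEILP_WT replicate 3, the only batch 2 library of its group, differed in myeloid and neutrophil markers. Without Mpo their summed linear level was 1222 there, against 201 and 355 in the other cEILP_WT libraries. The same library held the lowest Runx2 of the 15, at 3.08, and a link between these values was not tested.

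Runx3 was low in the all-lymphoid progenitor, high in every early innate lymphoid group and intermediate in the ILC progenitor. Runx2 was highest in ALP_WT and had its lowest means in cEILP_WT and ILCP_WT, with no return in ILCP_WT. Runx1 and Cbfb varied less, with the lowest Runx1 in ILCP_WT. In an F test over the 6 groups (limma, p-values adjusted by Benjamini-Hochberg over all tested genes), Runx3 (adjusted p = 0.000189) and Runx2 (adjusted p = 0.00363) passed the threshold of 0.05, which 8.36% of the tested genes did. Runx1 (adjusted p = 0.149) and Cbfb (adjusted p = 0.307) did not. Over the 15 libraries the SD of the log2 values was 1.33 for Runx2, 0.93 for Runx3, 0.45 for Runx1 and 0.22 for Cbfb.

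**Figure D1:**
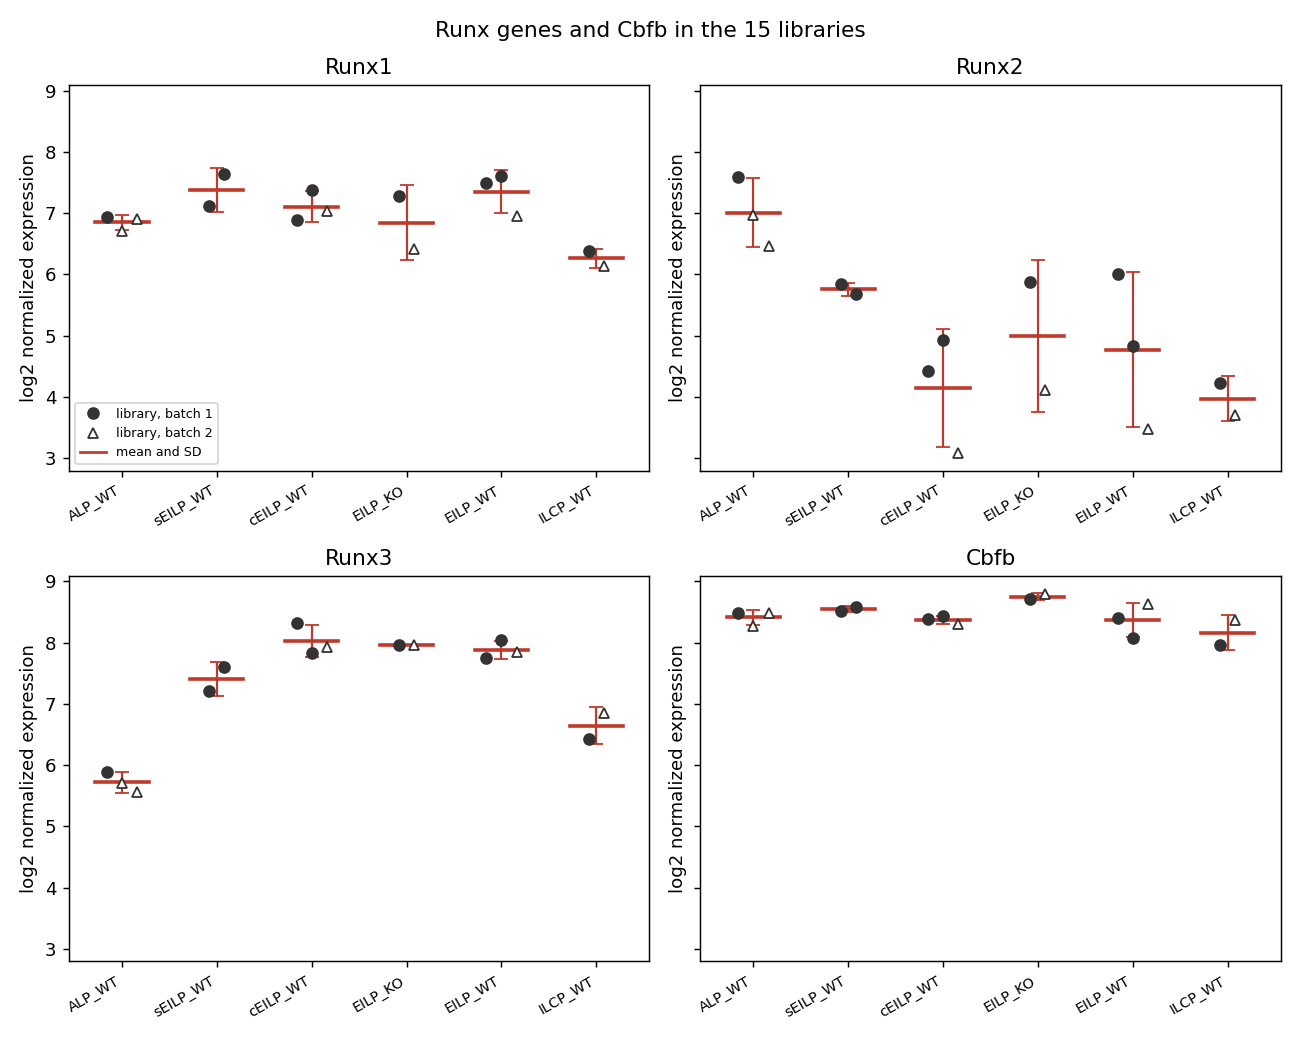
Log2 normalized expression of Runx1, Runx2, Runx3 and Cbfb (vertical axis) in each library of the 6 groups (horizontal axis), with filled circles for batch 1, open triangles for batch 2, and red lines for the group mean with its SD. Runx3 is lowest in ALP_WT, at 5.55 to 5.89, Runx2 is highest there, at 6.46 to 7.59, and Cbfb stays between 7.96 and 8.79 in every library.

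Runx3 (ENSMUSG00000070691.10, chromosome 4 at 135120652 to 135177990 on the plus strand, GENCODE annotation of GRCm38) had log2 values of 5.89, 5.71 and 5.55 in the 3 ALP_WT libraries. It was 7.21 and 7.60 in sEILP_WT and 8.31, 7.82 and 7.94 in cEILP_WT. It was 7.95 and 7.96 in EILP_KO, against 7.75, 8.05 and 7.84 in EILP_WT. In ILCP_WT it was 6.43 and 6.86. The ALP_WT libraries lay below every other library, and the ILCP_WT libraries lay between ALP_WT and sEILP_WT without overlap. The order of the group means was cEILP_WT, EILP_KO, EILP_WT, sEILP_WT, ILCP_WT and ALP_WT. The first 3 overlapped, and each later neighbour was separate in its library values.

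Runx2 (ENSMUSG00000039153.16, chromosome 17 at 44495987 to 44814797 on the minus strand) had log2 values of 7.59, 6.97 and 6.46 in ALP_WT and of 5.83 and 5.68 in sEILP_WT. It was 4.42, 4.93 and 3.08 in cEILP_WT. EILP_KO held it at 5.87 and 4.11, and EILP_WT at 6.00, 4.84 and 3.47. In ILCP_WT it was 4.23 and 3.71. Every ALP_WT library was above every library of the other groups. From there the group means ran down through sEILP_WT, EILP_KO, EILP_WT and cEILP_WT to ILCP_WT, and each neighbouring pair after ALP_WT overlapped. Batch moved with Runx2: in 5 of the 5 groups that have libraries of both batches, those of batch 2 lay below those of batch 1. The fitted batch difference, batch 2 minus batch 1, was -1.36 on the log2 scale (SE 0.30, limma adjusted p = 0.604 over all genes, unadjusted p = 0.000624).

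Runx1 (ENSMUSG00000022952.17, chromosome 16 at 92601466 to 92826149 on the minus strand) was 6.93, 6.70 and 6.91 in ALP_WT on the log2 scale. It was 7.12 and 7.63 in sEILP_WT and 6.89, 7.38 and 7.04 in cEILP_WT. EILP_KO had 7.27 and 6.41, against 7.50, 7.60 and 6.95 in EILP_WT. The ILCP_WT libraries had 6.37 and 6.14, below every other library. The remaining 5 groups overlapped from neighbour to neighbour, with group means of 6.84 to 7.38. Cbfb (ENSMUSG00000031885.14, chromosome 8 at 105170674 to 105217989 on the plus strand) was 8.49, 8.27 and 8.49 in ALP_WT, 8.51 and 8.58 in sEILP_WT, and 8.39, 8.43 and 8.30 in cEILP_WT. It was 8.71 and 8.79 in EILP_KO, against 8.41, 8.08 and 8.63 in EILP_WT, and 7.96 and 8.37 in ILCP_WT. Its libraries spanned 0.83 log2 units in all, and the EILP_KO libraries were the highest of the 15.

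Libraries made with the kit named in the labels are not known from the sources used here to have been counted by strand, so reads of overlapping antisense genes could be assigned to a member. In the annotation Gm26626 lies antisense in Runx1 and Gm16224 in Runx3. Neither is a row of the deposited table under these names, so their levels could not be read. Runx2 overlaps Supt3, which runs from 44777152 to 45119290 on the plus strand and encodes a subunit of a histone acetyltransferase complex. Supt3 was 4.76 ± 0.66 in ALP_WT, 5.56 ± 0.15 in sEILP_WT, 4.30 ± 0.43 in cEILP_WT, 4.94 ± 0.60 in EILP_KO, 4.85 ± 0.36 in EILP_WT and 4.62 ± 0.18 in ILCP_WT (SD, n = 2 or 3), so its highest group mean was in sEILP_WT and not in ALP_WT. The antisense genes Runx2os1 and Runx2os2 had group means of at most 0.93 and -2.45.

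Between the all-lymphoid progenitor and EILP_WT, which also differ in genotype, Runx3 and Runx2 differed in opposite directions. In EILP_WT against ALP_WT, 2 of the 4 genes changed, Runx3 upward and Runx2 downward, where 3.21% of the tested genes changed, 1.71% upward and 1.5% downward. Runx3 was 7.88 ± 0.15 in EILP_WT and 5.72 ± 0.17 in ALP_WT (SD, n = 3 each), a rise of 2.15 on the log2 scale (SE 0.20, limma adjusted p = 0.000177) or 4.45-fold. Runx2 was 4.77 ± 1.27 in EILP_WT and 7.01 ± 0.57 in ALP_WT, and it fell by 2.70 (SE 0.43, limma adjusted p = 0.00547), 6.48-fold. The rise of Runx3 was 2.01 in batch 1 and 2.21 in batch 2, and Runx2 differed by -2.17 and -3.25. The call of Runx2 did not hold without the batch term (adjusted p = 0.106), in batch 1 alone, which leaves 1 ALP_WT library (adjusted p = 0.157), or with these groups fitted alone (adjusted p = 0.067). Without EILP_WT replicate 3 the difference was 2.2 for Runx3 (adjusted p = 0.00272) and -2.39 for Runx2 (adjusted p = 0.0438). Runx1 differed by 0.38 (95% interval -0.12 to 0.88), although its 3 EILP_WT libraries lay above all 3 ALP_WT libraries, and Cbfb by -0.00 (95% interval -0.35 to 0.34).

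The sEILP_WT fraction also had more Runx3 than ALP_WT. In sEILP_WT against ALP_WT, 1 of the 4 genes changed, where 0.803% of the tested genes did, 0.493% upward and 0.31% downward. Runx3 was 7.41 ± 0.27 in sEILP_WT (n = 2) and 5.72 ± 0.17 in ALP_WT (n = 3), a rise of 1.67 (SE 0.24, limma adjusted p = 0.0108), 3.19-fold. Its adjusted p was 0.108 without sEILP_WT replicate 2, where the difference was 1.48, and 0.103 in batch 1 alone. Runx2 was 5.76 ± 0.11 in sEILP_WT and 7.01 ± 0.57 in ALP_WT. Its fitted difference of -2.16 (SE 0.51) did not pass (limma adjusted p = 0.102). Because sEILP_WT has libraries of batch 1 only, this estimate rests on the batch difference seen in the other groups: without the batch term it was -1.25, and with library weights it passed (adjusted p = 0.0378). In batch 1 alone the Runx3 difference was 1.52 and that of Runx2 was -1.83, against 1 ALP_WT library.

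With Tcf7 disrupted, no change in the Runx genes or Cbfb passed the test. In EILP_KO against EILP_WT, 0 of the 4 genes passed by limma, where 0.103% of the tested genes did, 0.0477% higher and 0.0557% lower, and 1094 genes had an unadjusted p under 0.05. Runx3 was 7.96 ± 0.01 in EILP_KO (n = 2) and 7.88 ± 0.15 in EILP_WT (n = 3), a difference of 0.08 with a 95% interval of -0.41 to 0.57. For scale, the rise of Runx3 in EILP_WT against ALP_WT was 2.15. Runx2 was 4.99 ± 1.25 in EILP_KO and 4.77 ± 1.27 in EILP_WT, and its difference of 0.45 had a wider interval of -0.58 to 1.48. Runx1 was 6.84 ± 0.61 in EILP_KO and 7.35 ± 0.35 in EILP_WT, a difference of -0.44 (95% interval -0.99 to 0.10). Cbfb was 8.75 ± 0.05 in EILP_KO and 8.37 ± 0.28 in EILP_WT. Both EILP_KO libraries were above all 3 EILP_WT libraries, with a difference of 0.36 (95% interval -0.02 to 0.73) that did not pass (limma adjusted p = 0.597). Without EILP_WT replicate 3 the differences were 0.07 for Runx3, 0.17 for Runx2, -0.56 for Runx1 and 0.49 for Cbfb. A p above the threshold does not show that the genes are alike in these groups. The summed level of 9 myeloid and neutrophil markers was 4139 to 5130 in EILP_KO, against 459 to 3840 in EILP_WT. Mpo made up 73.1% to 80.1% of that sum in EILP_KO and 66.1% to 86.4% in EILP_WT. Without Mpo the sum was 822 to 1380 in EILP_KO and 130 to 523 in EILP_WT. The part of these markers in the values of the 4 genes was not tested.

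Set against ALP_WT, EILP_KO had higher Runx3 and lower Runx2, as EILP_WT did. Both comparisons share the ALP_WT libraries, so they are not independent. In EILP_KO against ALP_WT, 2 of the 4 genes changed, where 1.33% of the tested genes did, 0.605% upward and 0.724% downward. Runx3 was 7.96 ± 0.01 in EILP_KO and 5.72 ± 0.17 in ALP_WT, a rise of 2.24 (SE 0.22, limma adjusted p = 0.000427), 4.71-fold. It was 2.06 in batch 1 and 2.33 in batch 2. The call did not hold in batch 1 alone, which leaves 1 library in each of these groups. With these groups fitted alone the adjusted p was 0.107, and 0 of all tested genes passed. Runx2 was 4.99 ± 1.25 in EILP_KO and 7.01 ± 0.57 in ALP_WT, and it fell by 2.25 (SE 0.47, limma adjusted p = 0.0396). That call was close to the threshold. It was lost without the batch term (adjusted p = 0.281), in batch 1 alone (0.321), with these groups fitted alone (0.153) and without the intensity trend (0.0550). It was also lost when any ALP_WT, EILP_KO, sEILP_WT or cEILP_WT library was left out, with differences of -2.48 to -1.99 and adjusted p-values of 0.0525 to 0.257, and held when an EILP_WT or ILCP_WT library was.

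**Figure D2:**
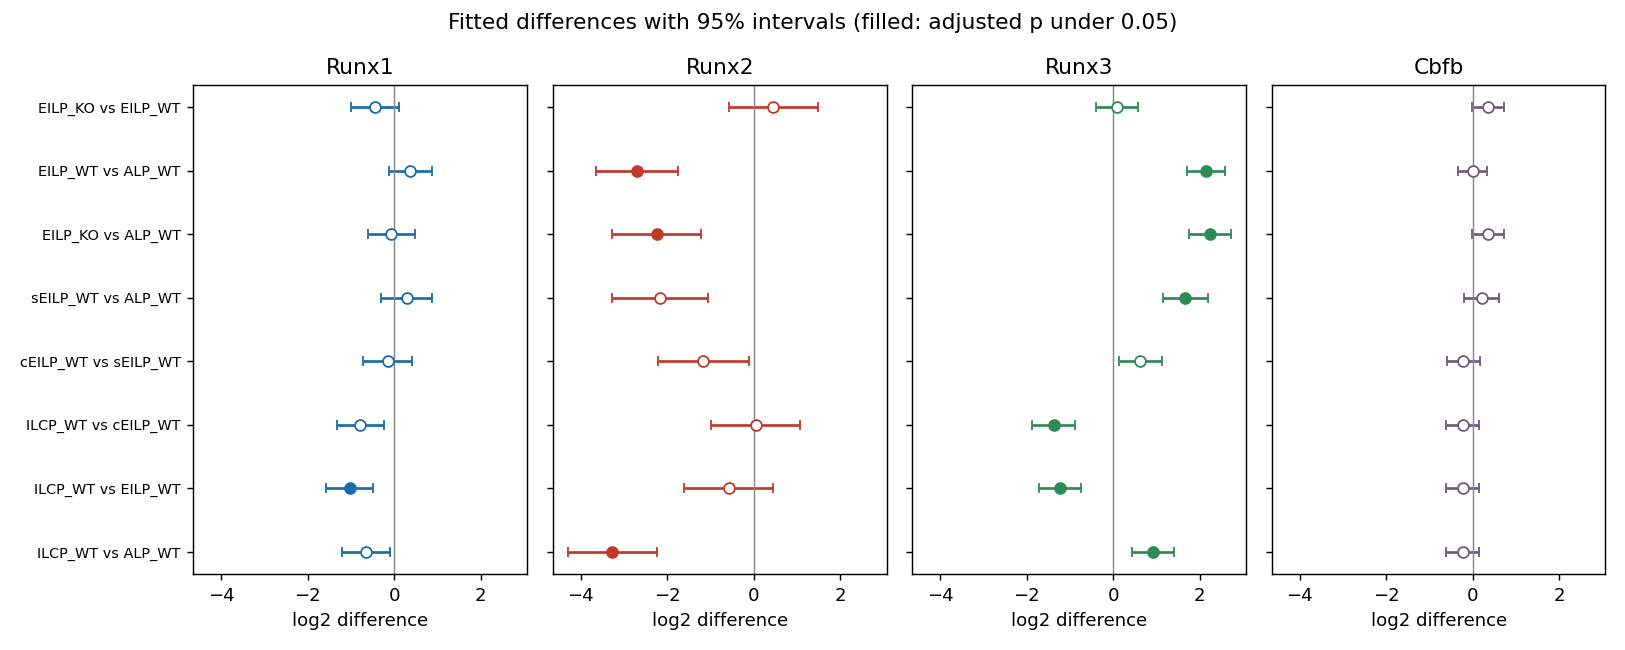
Fitted log2 differences (horizontal axis, first group minus second group) of the 4 genes in the 8 comparisons (vertical axis), with 95% intervals and filled symbols where the adjusted p was under 0.05. Runx3 is at 2.15 and 2.24 for EILP_WT and EILP_KO against ALP_WT and negative in ILCP_WT against cEILP_WT and EILP_WT, while every Cbfb symbol is open.

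Between cEILP_WT and sEILP_WT, 0 of the 4 genes passed, as 0 of all tested genes did by limma. Here 647 genes had an unadjusted p under 0.05. Runx3 was 8.02 ± 0.26 in cEILP_WT (n = 3) and 7.41 ± 0.27 in sEILP_WT (n = 2), and differed by 0.62 (95% interval 0.13 to 1.12, limma adjusted p = 0.789). Runx2 was 4.14 ± 0.96 in cEILP_WT and 5.76 ± 0.11 in sEILP_WT, and differed by -1.16 (95% interval -2.21 to -0.11, limma adjusted p = 0.911). Runx1 and Cbfb differed by -0.15 and -0.21. The sEILP_WT libraries are of batch 1 only, and within that batch Runx3 differed by 0.66 and Runx2 by -1.08.

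At the ILC progenitor Runx3 was lower again. In ILCP_WT against cEILP_WT, 1 of the 4 genes changed, where 7.41% of the tested genes did, 2.69% upward and 4.72% downward. Runx3 was 6.64 ± 0.30 in ILCP_WT (n = 2) and 8.02 ± 0.26 in cEILP_WT (n = 3), and it fell by 1.38 (SE 0.22, limma adjusted p = 0.00318), 2.60-fold. The difference was -1.64 in batch 1 and -1.08 in batch 2. The adjusted p was 0.104 with these groups fitted alone, where 0 of all tested genes passed. Runx1 was 6.26 ± 0.16 in ILCP_WT and 7.10 ± 0.25 in cEILP_WT, a difference of -0.78 that did not pass (limma adjusted p = 0.0842). Runx2 differed by 0.05, with -0.44 in batch 1 and 0.63 in batch 2. The batch 2 values set ILCP_WT replicate 2 against cEILP_WT replicate 3 alone. In ILCP_WT against EILP_WT, 2 of the 4 genes changed, both lower, where 6.95% of the tested genes changed, 2.61% higher and 4.34% lower. Runx3 was 6.64 ± 0.30 in ILCP_WT and 7.88 ± 0.15 in EILP_WT, and it fell by 1.24 (SE 0.22, limma adjusted p = 0.00632). Runx1 was 6.26 ± 0.16 in ILCP_WT and 7.35 ± 0.35 in EILP_WT, and it fell by 1.03 (SE 0.25, limma adjusted p = 0.0301), 2.04-fold. In batches 1 and 2 Runx3 differed by -1.47 and -0.99 and Runx1 by -1.17 and -0.80. With these groups fitted alone the adjusted p was 0.168 for Runx3 and 0.194 for Runx1, and 0 of all tested genes passed. Without EILP_WT replicate 3 the differences were -1.25 (adjusted p = 0.0194) and -1.14 (adjusted p = 0.0411) for Runx3 and Runx1. The call of Runx1 was lost without EILP_WT replicate 1 (adjusted p = 0.0679), without EILP_WT replicate 2 (0.0714), without ILCP_WT replicate 1 (0.147) and without ILCP_WT replicate 2 (0.0762), with differences of -1.10 to -0.94. The call of Runx3 was lost without ILCP_WT replicate 1, where it differed by -0.95 (adjusted p = 0.0708).

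From end to end, with the same genotype on both sides, the ILC progenitor had more Runx3 and less Runx2 than the all-lymphoid progenitor. In ILCP_WT against ALP_WT, 2 of the 4 genes changed, where 13.4% of the tested genes did, 5.56% upward and 7.86% downward. Runx2 was 3.97 ± 0.37 in ILCP_WT (n = 2) and 7.01 ± 0.57 in ALP_WT (n = 3), and it fell by 3.27 (SE 0.47, limma adjusted p = 0.000945), 9.62-fold. It differed by -3.36 in batch 1 and -3.01 in batch 2. Runx3 was 6.64 ± 0.30 in ILCP_WT and 5.72 ± 0.17 in ALP_WT, a rise of 0.92 (SE 0.22, limma adjusted p = 0.0183), 1.89-fold. That rise was 0.54 in batch 1 and 1.22 in batch 2, and its call was lost without ILCP_WT replicate 2, where it was 0.63 (adjusted p = 0.204), and without ALP_WT replicate 3, where it was 0.84 (adjusted p = 0.0572). It was also lost in batch 1 alone (adjusted p = 0.428), with these groups fitted alone (0.158) and without the intensity trend (0.0610). Runx1 differed by -0.65 (95% interval -1.20 to -0.10, limma adjusted p = 0.116) and Cbfb by -0.23 (95% interval -0.61 to 0.14).

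**Figure D3:**
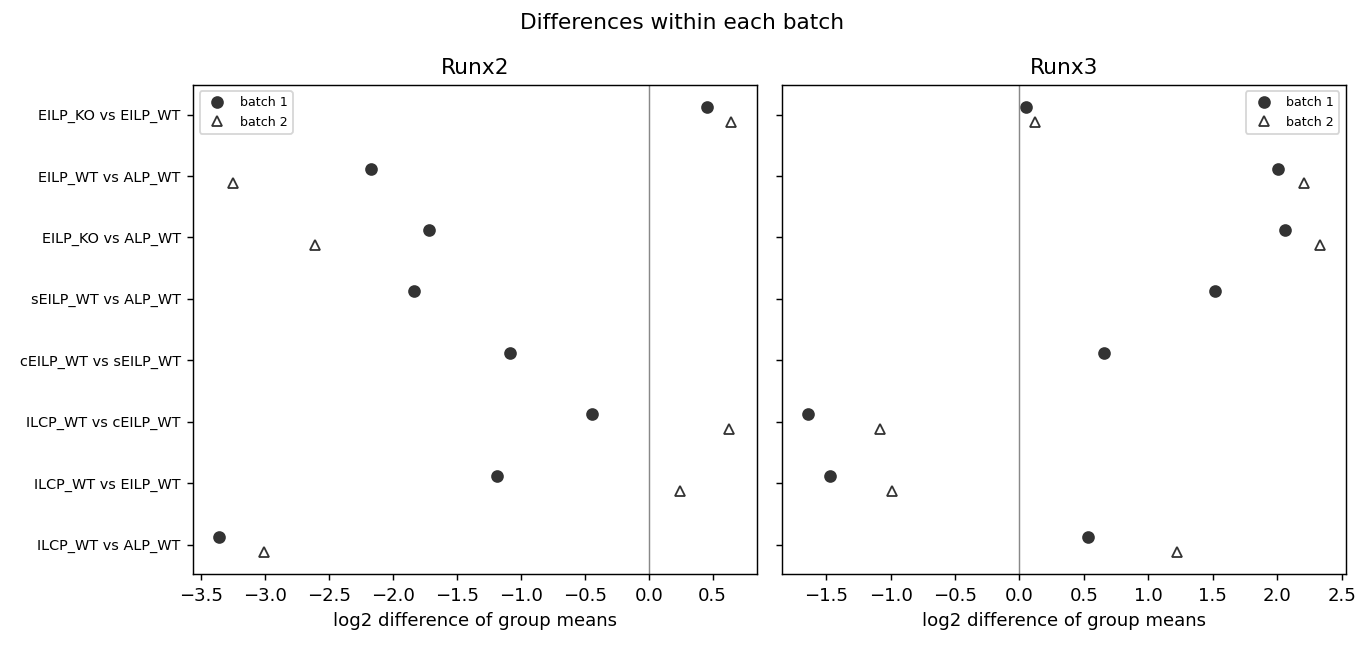
Differences of group means of Runx2 and Runx3 in log2 units (horizontal axis, first group minus second group) within batch 1 (filled circles) and batch 2 (open triangles) for the 8 comparisons (vertical axis); sEILP_WT has no batch 2 library. Both batches give negative Runx2 and positive Runx3 differences against ALP_WT, while Runx2 in ILCP_WT against cEILP_WT is -0.44 and 0.63.

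The values of Runx3 and Runx2 given above can also be set against each other inside each library. Runx3 minus Runx2, on the log2 scale, was -1.70, -1.26 and -0.91 in ALP_WT. It was 1.38 and 1.92 in sEILP_WT and 3.89, 2.89 and 4.86 in cEILP_WT. It was 2.08 and 3.85 in EILP_KO, against 1.75, 3.21 and 4.38 in EILP_WT, and 2.20 and 3.15 in ILCP_WT. The value was negative in the ALP_WT libraries and positive in the others. Whether the values are scaled by transcript length is not stated in the labels. The sign itself is therefore not read as which transcript was more abundant, and only its change between groups is read. Runx3 minus Runx1 was -1.36 to -0.99 in ALP_WT, -0.03 and 0.09 in sEILP_WT and 0.05 to 1.55 in the libraries of the other groups.

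**Figure D4:**
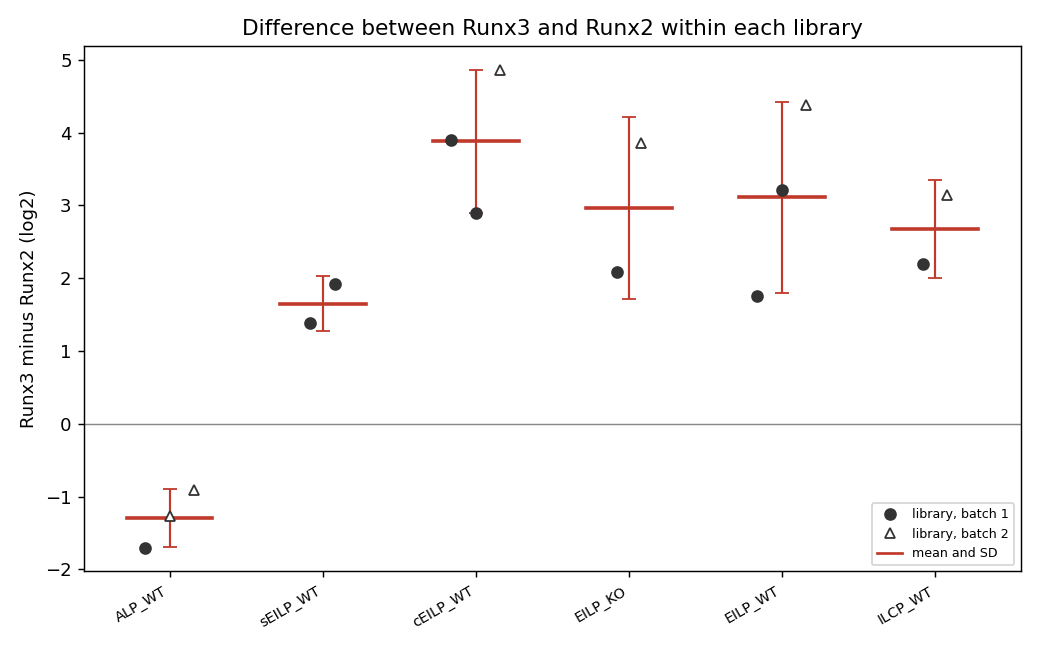
Runx3 minus Runx2 in log2 units (vertical axis) in each library of the 6 groups (horizontal axis), with filled circles for batch 1, open triangles for batch 2, and red lines for the group mean and SD. The ALP_WT libraries lie between -1.70 and -0.91 and the cEILP_WT libraries between 2.89 and 4.86.

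Marker levels of other cell types differed between the groups. For plasmacytoid dendritic cells, which use Runx2, the 9 listed markers were all in the table. Their summed level on the linear scale was 1430 to 2207 in ALP_WT, 1413 to 2020 in sEILP_WT, 376 to 1015 in cEILP_WT, 1396 to 2285 in EILP_KO, 854 to 1899 in EILP_WT and 562 to 590 in ILCP_WT. The interferon regulatory factor gene Irf8 made up 57.4% to 93.6% of the sum in every group but ILCP_WT. Without it the sum was 461 to 899 in ALP_WT, 170 to 192 in sEILP_WT, 154 to 234 in cEILP_WT, 144 to 146 in EILP_KO, 174 to 196 in EILP_WT and 414 to 549 in ILCP_WT, where Ccr9 averaged 8.52. Siglech, which marks these cells, sat at the floor of the table in EILP_WT and ILCP_WT libraries and averaged 6.38 in ALP_WT. The list was mixed: in ILCP_WT against ALP_WT, 2 of the 9 markers had positive differences. Pacsin1 averaged 4.26 in ILCP_WT, 4.41 in EILP_KO and 2.42 in ALP_WT. Of the 10 NK and ILC1 markers 9 were in the table, with sums of 102 to 194 in ALP_WT, 262 to 301 in sEILP_WT, 315 to 447 in cEILP_WT, 295 to 468 in EILP_KO, 227 to 1019 in EILP_WT and 695 to 816 in ILCP_WT. The 1019 was that of EILP_WT replicate 3, and the other EILP_WT libraries had 227 and 359. Nkg7 made up 78.8% to 93.3% of the sum in ALP_WT, 80.2% to 93.2% in sEILP_WT and 89.1% to 93.5% in EILP_KO. Without Nkg7 the sum was 7.17 to 28.4 in ALP_WT, 17.7 to 59.8 in sEILP_WT and 35.5 to 120 in cEILP_WT. It was 19.1 to 50.8 in EILP_KO, 19.5 to 490 in EILP_WT and 282 to 437 in ILCP_WT. Ncr1, an NK receptor, sat at the floor in all ALP_WT, sEILP_WT and EILP_KO libraries. Of the 10 megakaryocyte, erythroid and mast cell markers all were in the table. Their sums were 45.8 to 205 in ALP_WT, 1213 to 1248 in sEILP_WT, 1412 to 1774 in cEILP_WT, 910 to 923 in EILP_KO, 701 to 1081 in EILP_WT and 246 to 332 in ILCP_WT. The mast cell gene Cpa3 made up 71.3% to 82.9% of the sum in cEILP_WT and 27.2% to 51.8% in EILP_KO. Without it the sum was 34.5 to 200 in ALP_WT, 228 to 262 in sEILP_WT and 242 to 481 in cEILP_WT. It was 445 to 662 in EILP_KO, 162 to 467 in EILP_WT and 156 to 226 in ILCP_WT. The highest library was of EILP_KO, but the EILP_KO range overlapped those of cEILP_WT and EILP_WT. The platelet factor gene Pf4 sat at the floor in all ALP_WT, sEILP_WT, cEILP_WT and EILP_WT libraries, and Gata1 in those of sEILP_WT. The 9 T cell markers in the table summed to 1162 and 1175 in ILCP_WT, against 161 to 275 in ALP_WT, and the 9 myeloid and neutrophil markers to 149 and 844 in ILCP_WT, against 1113 to 2072 in ALP_WT. The part of these cells in the Runx results was not tested.

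For each member, the 3 genes most like it were taken by Pearson correlation of log2 values over the 15 libraries, among 6143 named genes of at least median expression. These are descriptions of libraries that share groups and batches. Runx3 was most like Fut7 (r = 0.94), which encodes a fucosyltransferase that makes selectin ligands, the adaptor gene Grb2 (r = 0.92) and the mast cell protease gene Cpa3 (r = 0.92). Fut7 averaged 6.26 in ALP_WT, 7.70 in sEILP_WT, 7.85 in cEILP_WT, 7.65 in EILP_KO, 7.73 in EILP_WT and 6.88 in ILCP_WT. Runx2 was most like Ramp1 (r = 0.93), which encodes a partner of a neuropeptide receptor, Cd47 (r = 0.91), whose product restrains phagocytosis, and Bin1 (r = 0.91), which encodes a membrane-curving protein. Runx1 was most like Clns1a (r = 0.92), Grn (r = 0.90) and Fam117a (r = 0.88). Cbfb was most like Uxs1 (r = 0.86), Irf3 (r = 0.83) and Mrpl49 (r = 0.83).

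Genes known to work with Runx proteins were read as a list. Of 29 listed symbols of partners, cofactors and neighbouring blood factors, 27 were tested. Aes and Tle5 were listed as alternative symbols of the same gene, and Aes was in the table. Runx1t1 was not. In EILP_WT against ALP_WT, 1 of the 27 rose and 0 fell, where 1.71% of all tested genes rose and 1.5% fell, with a median difference of 0.03, against -0.01 for all tested genes. The gene that rose was Tle3, a corepressor that Runx proteins recruit, at 7.26 ± 0.46 in EILP_WT and 6.05 ± 0.16 in ALP_WT (limma adjusted p = 0.0249). In EILP_KO against EILP_WT, in EILP_KO and in sEILP_WT against ALP_WT and in cEILP_WT against sEILP_WT, 0 of the 27 passed by limma. Of all tested genes 0.103%, 1.33%, 0.803% and 0% passed in these comparisons, so a count of 0 does not set the list apart. In ILCP_WT against cEILP_WT, 2 rose and 6 fell, where 2.69% of all tested genes rose and 4.72% fell, with a median of -0.40, against -0.07 for all tested genes. Gfi1b, a repressor that acts in the megakaryocyte and erythroid lineages, was -2.35 ± 3.12 in ILCP_WT and 6.58 ± 0.42 in cEILP_WT (limma adjusted p = 0.000326). Tal1, a stem cell and erythroid factor, was at the lowest value in both ILCP_WT libraries and 2.72 ± 1.09 in cEILP_WT (limma adjusted p = 0.0399). Spi1, which encodes the myeloid factor PU.1, was 2.14 ± 3.23 in ILCP_WT and 6.66 ± 0.93 in cEILP_WT (limma adjusted p = 0.00586). The corepressor gene Cbfa2t3 was 4.0 ± 0.48 in ILCP_WT and 6.98 ± 0.09 in cEILP_WT (limma adjusted p = 0.000446).

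The same 27 genes had 1 rise and 6 falls in ILCP_WT against EILP_WT, where 2.61% of all tested genes rose and 4.34% fell, with a median of -0.29, or -0.10 without 1 gene at the lowest value in a whole group. They had 3 rises and 7 falls in ILCP_WT against ALP_WT, where 5.56% rose and 7.86% fell, with a median of -0.36, against -0.06 and -0.09 for all tested genes. The gene that rose against EILP_WT was Fli1, an Ets factor, at 8.42 ± 0.49 in ILCP_WT and 6.82 ± 0.32 in EILP_WT (limma adjusted p = 0.00703). Cdk6, whose kinase product binds Runx1, was 5.52 ± 0.48 in ILCP_WT and 7.12 ± 0.41 in ALP_WT (limma adjusted p = 0.00501). Lmo2, a partner of Tal1, was 1.80 ± 0.49 in ILCP_WT and 8.16 ± 0.08 in ALP_WT (limma adjusted p = 0.0369).

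Genes with Runx-bound elements reported in blood cells were read as a second list. Of 31 listed, 23 were tested. In EILP_WT against ALP_WT, 4 rose and 2 fell, where 1.71% of all tested genes rose and 1.5% fell, with a median of -0.43, against -0.01 for all tested genes. Il2rb, a receptor chain for IL-2 and IL-15, was 8.15 ± 1.17 in EILP_WT and -0.43 ± 4.09 in ALP_WT (limma adjusted p = 0.00841). Itga2b, an integrin gene of megakaryocytes, was 5.97 ± 0.44 in EILP_WT and -2.29 ± 4.19 in ALP_WT (limma adjusted p = 0.0114). Rag1 and Rag2, which encode the recombinase of antigen receptor genes, sat at the floor in the 3 EILP_WT libraries, against 3.04 ± 1.15 and 6.76 ± 0.25 in ALP_WT (limma adjusted p = 0.00264 and 0.0222). In EILP_KO against ALP_WT, 2 rose and 1 fell, where 0.605% of all tested genes rose and 0.724% fell. In sEILP_WT against ALP_WT 1 rose and 1 fell, where 0.493% rose and 0.31% fell. Rag1 fell in both, at the lowest value in all EILP_KO and sEILP_WT libraries.

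In EILP_KO against EILP_WT and in cEILP_WT against sEILP_WT, 0 of the 23 passed by limma, where 0.103% and 0% of all tested genes did. In ILCP_WT against cEILP_WT, 2 rose and 2 fell, where 2.69% of all tested genes rose and 4.72% fell, with a median of 3.23, against -0.07 for all tested genes. The chemokine receptor gene Ccr2 was 10.21 ± 0.12 in ILCP_WT and 6.32 ± 0.75 in cEILP_WT (limma adjusted p = 0.0133), and Ccr7, a homing receptor gene, was 6.97 ± 0.23 in ILCP_WT and 3.98 ± 0.52 in cEILP_WT (limma adjusted p = 0.00586). Itga2b was at the lowest value in both ILCP_WT libraries, against 7.27 ± 0.19 in cEILP_WT (limma adjusted p = 0.00142). In ILCP_WT against EILP_WT, Ccr7 rose and Itga2b and Spi1 fell, where 2.61% of all tested genes rose and 4.34% fell. In ILCP_WT against ALP_WT, 5 rose and 2 fell, where 5.56% of all tested genes rose and 7.86% fell, with a median of 1.70, against -0.09 for all tested genes. Among those that rose was Bcl11b, a T lineage and ILC2 factor, at 7.88 ± 0.66 in ILCP_WT and -4.67 ± 0.14 in ALP_WT (limma adjusted p = 0.00026).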

How the data were processed

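RNA-seq libraries were made with the SMARTer Ultra Low Input and Nextera XT kits, per the labels' protocols. Build mm10, limma, RSEM 1.2.23, STAR 2.5.2b and bcl2fastq 2.17 are listed in the submitters' processing notes; the annotation is not given in the sources used here. The deposited table holds log2 values, which sum to 998697 to 999292 per library on the linear scale and share their quantiles, so they were read as quantile-normalized log2 CPM. Depth is therefore unknown and no detection limit is given. The totals do not show whether values were divided by transcript length, and the share of a gene in a marker sum depends on that. The table has 24 further columns without names or values.

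A gene was tested where 2 or more libraries reached a log2 value of 0. One limma fit (3.58.1, R 4.3.3) over the 15 libraries used group and batch (9 and 6 libraries, per the labels) as terms with an intensity trend, and p-values were adjusted by Benjamini-Hochberg over all tested genes within each comparison. Group values are means ± SD, differences are fitted with their standard error (SE), and 95% intervals are unadjusted. The fit was tested on simulated data. Named genes are the members, the 3 genes most correlated with each, and up to 4 changed genes per list and comparison, largest difference first; some are left out, and 1 changed gene is not reported here. The members and lists were chosen with earlier results of these data known. Alternatives changed the filter, batch term, scaling, variance trend, weights, libraries and replicate block. Promoter sequences are from RefSeq.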

Additional observations from a re-analysis of the deposited data

How the results depend on the processing

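Of 768 alternative values for the 4 genes, 702 kept direction and side of the threshold, 43 lost the call, 1 gained it and 22 changed sign; the causes were not tested. Out of 4, the number that passed became 1 without a batch term in EILP_WT and in EILP_KO against ALP_WT and in the F test. With these groups fitted alone, the calls over all tested genes against ALP_WT were 60 in EILP_WT, 403 in ILCP_WT, 0 in EILP_KO and 18 in sEILP_WT. They were 0 in ILCP_WT against cEILP_WT and against EILP_WT, so no gene could be called there. Under that fit the number out of 4 was 1 in EILP_WT and in ILCP_WT against ALP_WT. It was 0 in EILP_KO and in sEILP_WT against ALP_WT and in ILCP_WT against cEILP_WT and EILP_WT. In batch 1 alone it was 1 in EILP_WT and in ILCP_WT against ALP_WT, and 0 in EILP_KO and in sEILP_WT against ALP_WT, in ILCP_WT against EILP_WT and in the F test. Without the intensity trend it was 1 in EILP_KO and in ILCP_WT against ALP_WT and in ILCP_WT against EILP_WT. With library weights it was 2 in sEILP_WT against ALP_WT and 1 in ILCP_WT against EILP_WT. With the replicate block it was 1 in EILP_KO and in ILCP_WT against ALP_WT and in ILCP_WT against EILP_WT, and 0 in sEILP_WT against ALP_WT. The calls lost under it were Runx2 in EILP_KO (adjusted p = 0.0716), Runx3 in sEILP_WT (0.0545) and Runx3 in ILCP_WT (0.0528) against ALP_WT, and Runx1 in ILCP_WT against EILP_WT (0.166). Deviations of same-numbered libraries from their group means had correlations of -0.0552 to 0.0674. These deviations were not adjusted for batch, so they cannot settle whether same-numbered libraries were paired. Leaving out 1 library gave 1 to 2 in EILP_KO and in ILCP_WT against ALP_WT, 0 to 1 in sEILP_WT against ALP_WT and 0 to 2 in ILCP_WT against EILP_WT; a lone library left in a group is assumed to vary like the others.

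Signs changed in values near 0. Runx2 in ILCP_WT against cEILP_WT (0.05) was -0.17 without a batch term, -0.28 with the replicate block, -0.44 in batch 1 alone and -0.42 to 0.59 without 1 library. Cbfb in EILP_WT against ALP_WT was 0.0090 with the block, 0.0061 with these groups alone and -0.14 to 0.12 without 1 library. Runx1 in EILP_KO against ALP_WT (-0.06) was 0.020 with the block, 0.34 in batch 1 alone and -0.35 to 0.25 without 1 library, and in cEILP_WT against sEILP_WT (-0.15) it was -0.41 to 0.10 without 1 library. Cyclic loess changed no call. Over all genes, counts over the alternatives, with those that left out 1 library, ranged from 60 to 421 in EILP_WT, 0 to 198 in EILP_KO, 16 to 153 in sEILP_WT and 403 to 1867 in ILCP_WT against ALP_WT, 0 to 54 in EILP_KO and 0 to 892 in ILCP_WT against EILP_WT, 0 to 9 in cEILP_WT against sEILP_WT, 0 to 1067 in ILCP_WT against cEILP_WT and 423 to 1108 in the F test. Groups of 2 or 3 libraries and the unknown depth limit what could be detected.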
